A study of Mus musculus with 20 samples.

Results

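The transcripts described here are 10 genes of the circadian clock, chosen by symbol from the 23284 genes of the expression tables: Arntl, Clock, Npas2, Per1, Per2, Per3, Nr1d1, Nr1d2, Dbp and Tef. All 10 were found in the tables of all 20 mouse hearts and all 10 passed the filter on low values, along with 12589 genes in all. The clock of heart muscle is a loop of transcription factors. ARNTL (also called BMAL1) pairs with CLOCK or its relative NPAS2 and switches on the Per, Cry, Nr1d, Dbp, Tef and Hlf genes through the E-box motif. PER and CRY proteins then block that pair, while the NR1D proteins repress Arntl and Npas2, so in mouse tissues Arntl and Dbp peak at opposite times of day. The labels used here give no hour of the day, light schedule or date of sampling for any heart, so each heart is shown and no value is tied to an hour.

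Every mouse was of strain C57BL/6 and carried the Wnt5a floxed genotype, in which the gene for the secreted signal WNT5A can be cut out by Cre recombinase. The controls carried the floxed gene and no Cre is listed for them. The conditional knockouts (CKO) also carried Myh6-Cre/Esr 1, a Cre fused to an estrogen receptor and driven by the Myh6 promoter, which is active in heart muscle cells, so that tamoxifen removes Wnt5a in those cells and leaves it in others. Hearts were taken at the end of tamoxifen with no operation, or 2 or 4 weeks after a sham operation or after transverse aortic constriction (TAC), which narrows the aorta and loads the left ventricle with pressure. With control and CKO this makes 10 groups of 2 hearts, and each heart is called here by the number in its label. Nothing in the labels ties hearts to litters or cages, so p-values measure the spread between these hearts.

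The values are FPKM, fragments scaled to transcript length and to library size, so they may be compared between genes. The median ratio of a heart's genes to their mean over hearts was 1.003 to 1.006, while the FPKM sums were 579596 to 713671. The deposited values were thus already on a common median scale between hearts. The absolute depth is unknown, and the relative depth, read from the steps between the lowest values, spanned 0.874 to 1.201. Myh6, Tnnt2, Actc1, Ttn and Myl2, which define working heart muscle, summed to between 49757 and 73774 FPKM in every heart. Markers of other cells varied. The 4 fibroblast markers summed to 498.7 to 587.5 FPKM in control sham hearts and to 600.7 to 1001 in control TAC hearts, against 544.2 to 600.9 and 418.7 to 688.3 in CKO sham and CKO TAC hearts. The atrial marker Myl7 was at 10 FPKM or more in 5 hearts (11, 14, 16, 21 and 24), and results are given without them where that changes a call. Esr1, which reads the Cre fusion, was 0.101 to 0.465 FPKM in controls and 197 to 931 FPKM in CKO hearts, while Wnt5a was 1.59 to 4.11 FPKM in controls and 0.853 to 2.33 FPKM in CKO hearts.

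Some of the 10 genes carry known clock motifs next to their start sites, and these are shown because the same genes are compared below with Arntl. RefSeq promoters (build GRCm38.p6, 250 bases before to 50 after each start site) were found for 9 of the 10 genes, Per2 being the one without an entry. The E-box CACGTG, bound by ARNTL with CLOCK, was in the promoters of Per1 and Tef and in 7.15% of 32851 mouse promoters. The D-box, searched as TTATGTAA or TTACGTAA on both strands and bound by DBP, TEF and HLF, was in the promoter of Per3 alone among the members and in 1.06% of all promoters. The motif bound by the NR1D and ROR receptors, searched as TAGGTCA or TGGGTCA on both strands, was in that of Arntl and in 6.45% of all. A gene is named if any of its start sites matched, while the shares count each start site as its own promoter. A match describes these letters only, and motifs outside these windows were not searched. Ciart, a clock repressor outside the 10, is added because its promoter held several E-boxes. Capitals mark the motif, and each sequence runs 5′ to 3′ on the strand of its gene.
Per1, chr11:69098759-69098858, plus strand: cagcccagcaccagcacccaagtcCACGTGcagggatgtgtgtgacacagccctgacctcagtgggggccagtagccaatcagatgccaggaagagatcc
Tef, chr15:81802513-81802612, plus strand: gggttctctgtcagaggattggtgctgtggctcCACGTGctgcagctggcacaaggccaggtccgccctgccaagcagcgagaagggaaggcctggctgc
Per3, chr4:151044791-151044890, minus strand: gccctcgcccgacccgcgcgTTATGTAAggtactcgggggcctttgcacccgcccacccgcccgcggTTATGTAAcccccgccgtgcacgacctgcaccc
Ciart, chr3:95882249-95882358, minus strand: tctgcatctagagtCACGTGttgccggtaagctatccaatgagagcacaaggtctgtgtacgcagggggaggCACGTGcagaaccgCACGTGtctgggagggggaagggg
Arntl, chr7:113207530-113207559, plus strand: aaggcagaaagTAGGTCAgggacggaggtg

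Among the activators of the loop, Arntl and Npas2 varied between hearts more than Clock. At the end of tamoxifen Arntl was 10.8 and 5.21 FPKM in control hearts 22 and 23, and 9.48 and 9.22 FPKM in CKO hearts 21 and 24. At 2 weeks it was 6.45 and 13.1 FPKM in control sham hearts 12 and 16, 10.8 and 8.04 in CKO sham hearts 14 and 15, 11.7 and 12.4 in control TAC hearts 11 and 32, and 7.30 and 8.18 in CKO TAC hearts 13 and 31. At 4 weeks it was 9.997 and 16.8 FPKM in control sham hearts 6 and 7, 8.18 and 16.3 in CKO sham hearts 4 and 8, 12.4 and 13.1 in control TAC hearts 1 and 2, and 12.9 and 11.3 in CKO TAC hearts 3 and 41. Hearts 7 and 8, both sham at 4 weeks, were highest and heart 23 was lowest, and the hearts of each TAC group lay close together. Clock, the partner of ARNTL, stayed between 10.7 and 13.8 FPKM over the 20 hearts. Npas2, a partner that can stand in for CLOCK, ranged from 0.778 FPKM in heart 12 to 2.87 FPKM in heart 32, with a mean of 1.55 ± 0.479 (SD, n = 20).

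Dbp, a PAR-bZIP transcription factor and a direct output of the loop, had the widest range of the more abundant members. At the end of tamoxifen Dbp was 24.0 and 44.1 FPKM in control hearts 22 and 23, and 30.2 and 22.6 FPKM in CKO hearts 21 and 24. At 2 weeks it was 36.4 and 15.3 FPKM in control sham hearts 12 and 16, 16.9 and 24.6 in CKO sham hearts 14 and 15, 6.49 and 8.34 in control TAC hearts 11 and 32, and 25.9 and 15.0 in CKO TAC hearts 13 and 31. At 4 weeks it was 17.5 and 4.87 FPKM in control sham hearts 6 and 7, 24.2 and 6.54 in CKO sham hearts 4 and 8, 7.84 and 7.06 in control TAC hearts 1 and 2, and 10.1 and 15.1 in CKO TAC hearts 3 and 41. The hearts with most Arntl, 7 and 8, thus had the lowest and the third lowest Dbp, and heart 23, with least Arntl, had the most. Expressed as the ratio of Dbp to Arntl, the hearts ran from 8.46 in heart 23 and 5.63 in heart 12 to 0.401 in heart 8 and 0.290 in heart 7. The 4 control TAC hearts fell in the narrow band of 0.539 to 0.675, next to the 2 lowest sham hearts, while the 4 CKO TAC hearts were at 0.784 to 3.54. Tef, a relative of DBP that binds the same motif, ranged less, from 18.5 FPKM in heart 3 to 36.7 FPKM in heart 23.

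**Figure D1:**
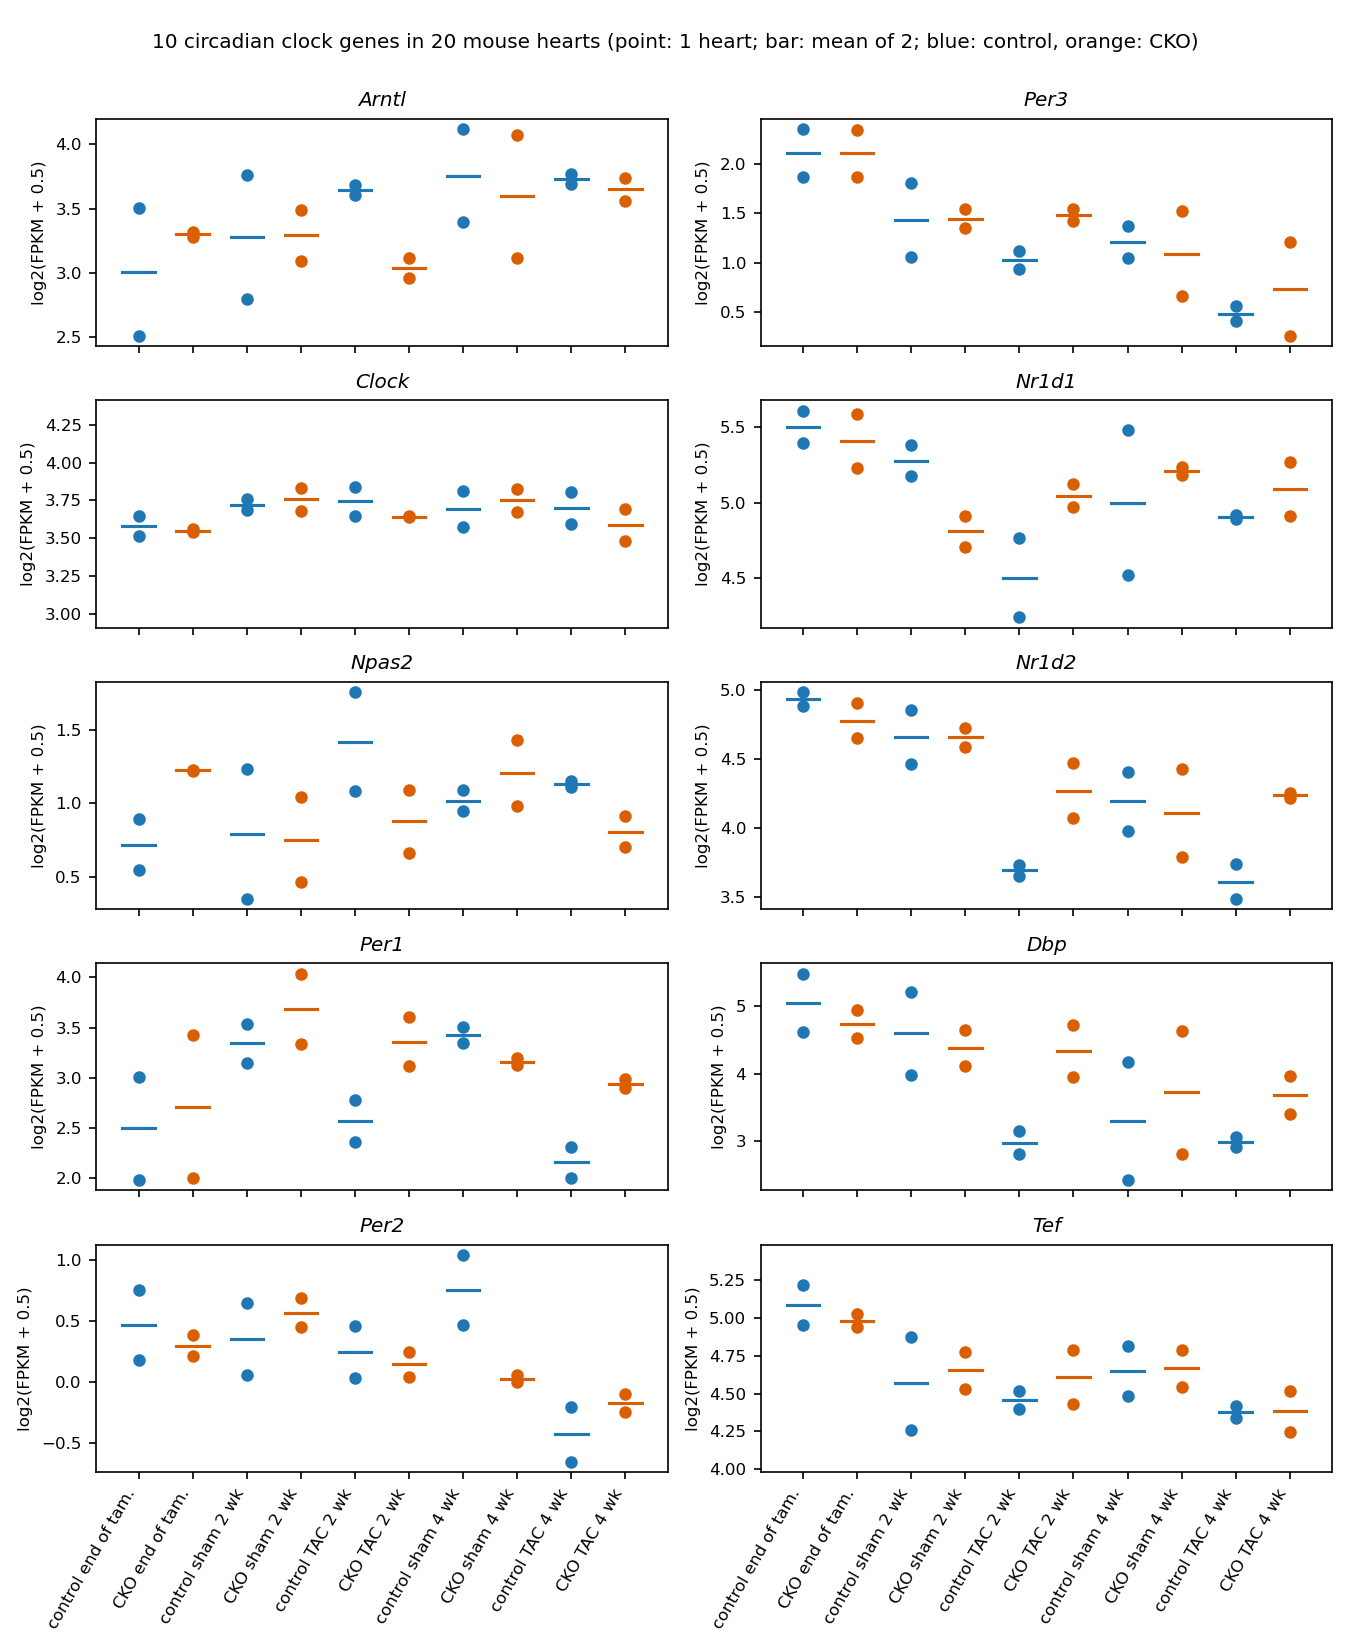
Each panel plots 1 clock gene as log2(FPKM + 0.5) on the y axis in the 10 groups on the x axis, where a point is 1 heart and the bar is the mean of the 2 hearts (blue control, orange CKO). Arntl and Dbp spread widely between the hearts of the sham groups, Clock spreads little, and Nr1d2, Per1 and Dbp are low in the 4 control TAC hearts.

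Nr1d2 (REV-ERBβ), a repressor of Arntl, separated the groups most clearly. At the end of tamoxifen it was 29.0 and 31.2 FPKM in control hearts 22 and 23 and 29.5 and 24.7 FPKM in CKO hearts 21 and 24. At 2 weeks it was 28.5 and 21.6 FPKM in control sham hearts 12 and 16, 23.6 and 26.0 in CKO sham hearts 14 and 15, 12.8 and 12.1 in control TAC hearts 11 and 32, and 21.7 and 16.3 in CKO TAC hearts 13 and 31. At 4 weeks it was 20.7 and 15.3 FPKM in control sham hearts 6 and 7, 21.0 and 13.4 in CKO sham hearts 4 and 8, 12.9 and 10.7 in control TAC hearts 1 and 2, and 18.1 and 18.7 in CKO TAC hearts 3 and 41. The 4 control TAC hearts were the 4 lowest of all 20, and the hearts at the end of tamoxifen were among the highest. Nr1d1 (REV-ERBα), the closest relative of Nr1d2, was the most abundant member at 34.2 ± 8.08 FPKM (SD, n = 20), from 18.4 FPKM in heart 11 to 48.4 FPKM in heart 23.

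The period genes encode the repressors that close the loop, and Per1 was the most abundant of them. Per1, which is also induced directly by glucocorticoids, was 3.45 and 7.57 FPKM in control hearts 22 and 23 and 3.49 and 10.2 FPKM in CKO hearts 21 and 24 at the end of tamoxifen. At 2 weeks it was 11.1 and 8.37 FPKM in control sham hearts 12 and 16, 15.9 and 9.59 in CKO sham hearts 14 and 15, 6.36 and 4.62 in control TAC hearts 11 and 32, and 11.7 and 8.16 in CKO TAC hearts 13 and 31. At 4 weeks it was 10.9 and 9.64 FPKM in control sham hearts 6 and 7, 8.66 and 8.24 in CKO sham hearts 4 and 8, 3.52 and 4.47 in control TAC hearts 1 and 2, and 6.95 and 7.41 in CKO TAC hearts 3 and 41. All 4 control TAC hearts were below all 4 control sham hearts and below all 4 CKO TAC hearts. Per2 was near the lower limit of these data, from 0.134 FPKM in heart 2 to 1.56 FPKM in heart 6, so its folds on the log2(FPKM + 0.5) scale are understated. Per3 was 3.16 to 4.61 FPKM in the 4 hearts at the end of tamoxifen, 1.08 to 3.01 FPKM in the 8 sham hearts and 0.697 to 2.41 FPKM in the 8 TAC hearts.

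The hearts of a group differed more in the clock genes than in most genes. The residual SD about the group means, on the log2(FPKM + 0.5) scale, had a median of 0.305 over the 10 clock genes and of 0.163 over the 12589 genes tested, and 9 of the 10 lay above that median. Dbp had a residual SD of 0.708, at percentile 98.2 of all genes tested. Per1 followed with 0.463 (percentile 95.5), Arntl with 0.422 (94.2) and Per3 with 0.380 (92.2). Clock, whose transcript is known to cycle little in mouse heart, had 0.114 (22.6). Among the 9389 genes with a mean of 3 FPKM or more, Dbp stood at percentile 98.4, Per1 at 97.3 and Arntl at 96.6.

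**Figure D2:**
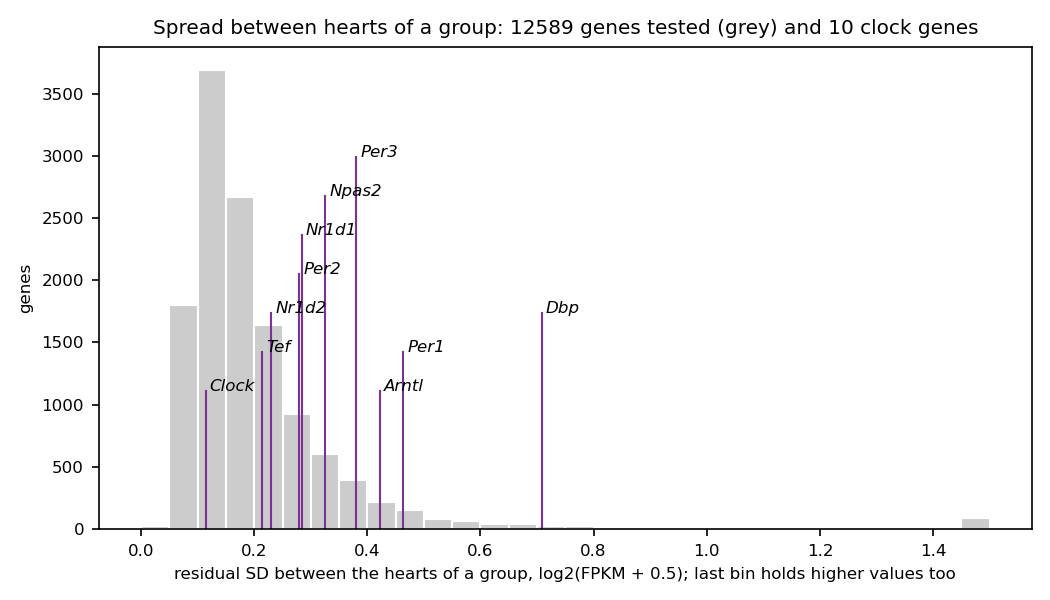
The histogram counts the 12589 genes tested (y axis) by the residual SD between the hearts of a group in log2(FPKM + 0.5) (x axis), and the vertical lines mark the 10 clock genes (their height has no meaning). Dbp at 0.708, Per1 at 0.463 and Arntl at 0.422 lie in the right tail and Clock at 0.114 lies left of the median of 0.163.

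The gap between the 2 hearts of a group was mostly wider in sham than in TAC hearts for Arntl and Dbp. The gap in Dbp was 0.53 to 1.81 log2 units over the 4 sham groups and 0.14 to 0.77 over the 4 TAC groups. That in Arntl was 0.40 to 0.96 over the sham groups and 0.07 to 0.18 over the TAC groups. At the end of tamoxifen it was 0.99 in controls and 0.04 in CKO hearts for Arntl, and the Per1 gaps of 1.03 and 1.43 were larger than in any operated group. With 2 hearts a group these gaps are descriptions and were not tested.

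Within groups, the heart with more Arntl mostly had less of the genes that the ARNTL pair switches on. Its Nr1d2 was lower in 9 of the 10 groups, its Dbp, Per1 and Per3 were lower in 8, its Tef and Per2 in 7 and its Nr1d1 in 6. Npas2 was higher in that heart in 8 groups and Clock in 7. Outside the members, Hlf was lower in 8 and Cry1 higher in 8, while Ciart was lower in 6 and higher in 4, close to an even split. In mouse tissues Npas2 and Cry1 are known to peak near or after Arntl, and Dbp, Nr1d1 and the Per genes in the opposite part of the day.

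Across the 20 hearts log2 Dbp and log2 Arntl were inversely related, with Pearson's r of -0.88 (permutation test, two-sided, adjusted p = 9.0e-05 over 9 relations, the raw 1.0e-05 being the smallest that 100000 permutations can give) and Spearman's rho of -0.87. Without hearts 23 and 12, the farthest from the Arntl median, r was -0.83. After each group's mean was removed r was -0.90 and rho -0.92, with an adjusted p of 0.035 for both in the exact permutation test over all exchanges of hearts within groups, where no raw p can be below 0.002. The within-group call was lost, at an adjusted p of 0.07 in the same exact permutation test, when any 1 of 12 of the 20 hearts was left out with its group, and r then stayed between -0.93 and -0.87.

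Of the other 8 genes, 5 passed the permutation test on Pearson's r across the 20 hearts, and 3 of these also passed within groups. Tef had r of -0.71 across hearts (adjusted p = 0.0012 by permutation) and -0.84 within groups (exact permutation, adjusted p = 0.035). Nr1d2 had -0.67 (permutation, adjusted p = 0.0021) and -0.79 within groups (exact permutation, adjusted p = 0.035), and Npas2 had 0.66 (permutation, adjusted p = 0.0031) and 0.76 (exact permutation, adjusted p = 0.035). The within-group calls of these 3 genes were likewise lost without any 1 of 12 hearts (exact permutation, adjusted p = 0.07). Their rho across hearts was -0.67, -0.70 and 0.61, and r without the 2 farthest hearts was -0.57, -0.56 and 0.50. Per3 was at -0.73 across hearts (permutation, adjusted p = 0.0012), with a rho of -0.80 and -0.63 without the 2 hearts, and at -0.74 within groups, where it missed the threshold (exact permutation, adjusted p = 0.07). Nr1d1 was at -0.48 with a rho of -0.44 (permutation, adjusted p = 0.049 and 0.068) and rested on hearts 23 and 12, being -0.30 without them and -0.47 within groups (exact permutation, adjusted p = 0.11). Clock (0.45), Per2 (-0.44) and Per1 (-0.26) did not pass across hearts (permutation, adjusted p = 0.056, 0.056 and 0.27), with rho of 0.40, -0.45 and -0.37, and their within-group r was 0.53, -0.68 and -0.37 (exact permutation, adjusted p = 0.11, 0.11 and 0.23).

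**Figure D3:**
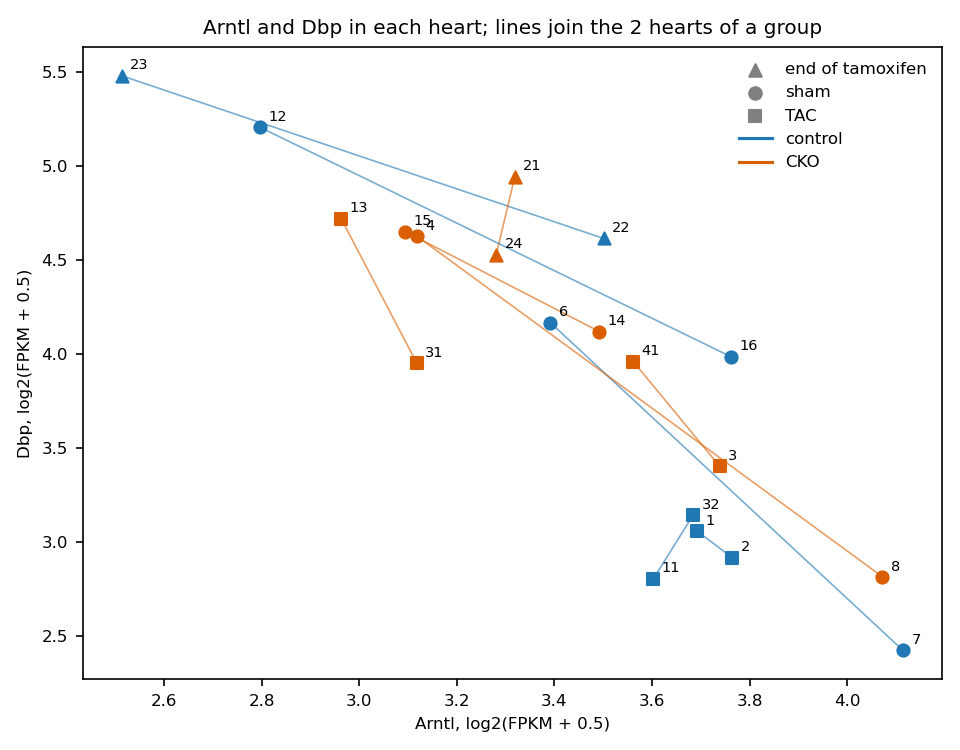
Each point is 1 heart, named by its number, with Arntl on the x axis and Dbp on the y axis, both as log2(FPKM + 0.5); lines join the 2 hearts of a group, color gives the genotype and shape the stage. Most lines slope down to the right, from heart 23 with the highest Dbp to heart 7 with the lowest, and the 4 control TAC hearts lie together below the sham hearts of similar Arntl.

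**Figure D4:**
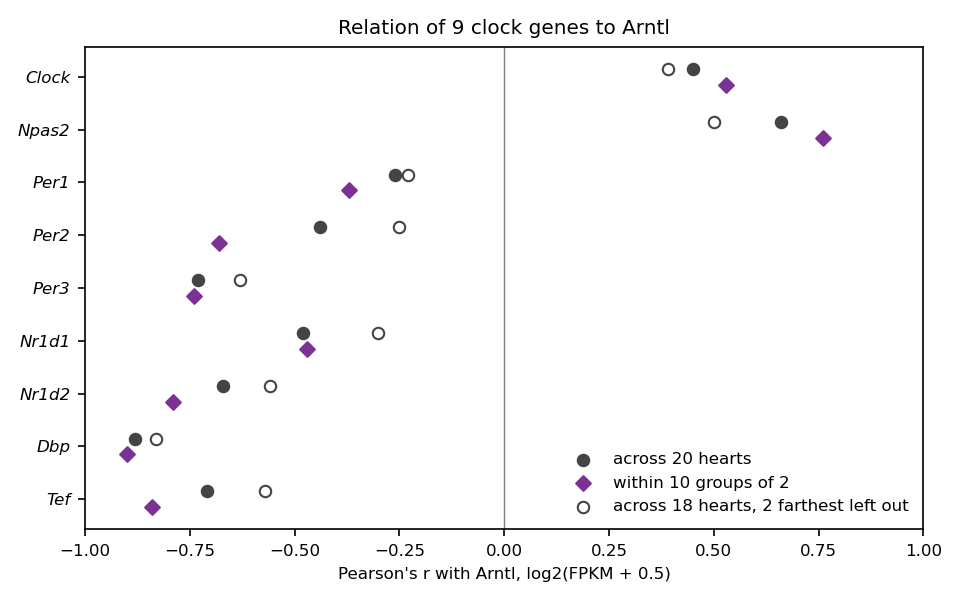
Pearson's r with Arntl (x axis) is plotted for the other 9 clock genes (y axis) across the 20 hearts (filled circles), without the 2 hearts farthest from the Arntl median (open circles) and within groups (diamonds). Clock and Npas2 are right of 0, the other 7 are left of it, and Dbp is farthest left at -0.88 and -0.90.

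The genes most like Arntl and Dbp within groups were ranked over 11608 genes that averaged 1 FPKM or more, by Pearson's r after removing group means, as a description over 10 pairs of hearts. Nearest to Arntl were Pfkp and Bysl (both 0.89), and among the farthest were Myo1g (-0.95), Dbp (-0.90) and Epdr1 (-0.89). Nearest to Dbp were Tspan4 (0.92), 1600027N09Rik (0.91), Nr1d2 (0.91), Tcap (0.90) and Tef (0.87), and farthest were Stau1 and Smurf2 (both -0.95), then Arntl and Ank1 (both -0.90). Dbp was thus second of all ranked genes from the bottom of the Arntl list, and Nr1d2 and Tef were among the 6 genes nearest to Dbp.

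Whether the level of a clock gene differed among the 10 groups at all was asked with limma's moderated F test. Nr1d2 (F = 9.29, limma adjusted p = 0.0023) and Per3 (F = 4.71, limma adjusted p = 0.024) passed, which is 2 of the 10 members against 30.4% of all genes tested. The Per3 call was lost without heart 1, 2, 21 or 23 and without the 5 Myl7 hearts. The refit without the Myl7 hearts has no CKO heart at the end of tamoxifen, because both 21 and 24 are left out. It also has 1 heart in the control sham, CKO sham and control TAC groups at 2 weeks. It is thus a test of fewer groups and hearts. The other 5 with an unadjusted p under 0.05, Per2, Dbp, Per1, Tef and Nr1d1, had limma adjusted p of 0.082 to 0.097. An unadjusted p under 0.05 in this F test was found for 7 of the 10 members and for 5553 of the 12589 genes tested. Npas2, Arntl and Clock had limma adjusted p of 0.44, 0.48 and 0.67. The groups were then compared in pairs, starting with the operation.

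In control hearts, TAC against sham over both times gave lower Nr1d2, Per1 and Per2. These 3 of 10 members were called lower and none higher, while 31.4% of all genes tested were called in this comparison, 16.1% lower and 15.3% higher. Nr1d2 averaged 21.5 ± 5.39 FPKM in sham and 12.1 ± 0.991 FPKM in TAC hearts (SD, n = 4 each) and fell by 0.77 ± 0.15 on the log2 scale (SE, limma adjusted p = 0.0013), with no overlap of the hearts. Per1 averaged 9.998 ± 1.26 and 4.74 ± 1.18 FPKM (SD, n = 4 each) and fell by 1.02 ± 0.28 (SE, limma adjusted p = 0.015), again with no overlap. Per2 fell by 0.65 ± 0.20 (SE, limma adjusted p = 0.025), with overlap between the hearts. How many of all genes lack overlap was not counted, so here and below its absence only describes these hearts. The Nr1d2 call held without each heart in turn, the Per1 call was lost without heart 1 or 32 (limma adjusted p up to 0.054), and the Per2 call without heart 2, 6, 11 or 12 (up to 0.1) or without the 5 Myl7 hearts (0.079). The median log2 difference of the 10 members was -0.50 and that of all genes -0.002.

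Dbp was the member whose mean differed nearly as much but did not pass. It was 18.5 ± 13.1 FPKM in control sham and 7.43 ± 0.819 FPKM in control TAC hearts (SD, n = 4 each), a log2 difference of -0.96 ± 0.43 (SE, limma adjusted p = 0.1). Sham heart 7, at 4.87 FPKM, was below every control TAC heart, and leaving that heart out moved Dbp to -1.40 (limma adjusted p = 0.03) and Nr1d1 to -0.67 (limma adjusted p = 0.0041), both past the threshold. With all hearts Nr1d1 (-0.43 ± 0.18) and Per3 (-0.57 ± 0.24) had limma adjusted p of 0.076 and 0.091. The activators did not pass: Arntl differed by 0.17 ± 0.26 (SE, limma adjusted p = 0.66), Clock by 0.02 ± 0.08 (0.91) and Npas2 by 0.37 ± 0.21 (0.21). Fewer muscle cells in the tissue and less RNA per cell cannot be told apart in whole hearts, and markers of other cells moved with these falls. All 4 fibroblast markers were called higher in control TAC than in control sham hearts, and their sum, though not Dcn or Pdgfra alone, did not overlap. Of the 4 macrophage markers, which summed to 77.8 to 167.5 FPKM in control sham and 118.5 to 193.4 FPKM in control TAC hearts, C1qa and Adgre1 were called higher (0.60 ± 0.21 and 0.73 ± 0.25, SE, limma adjusted p = 0.041 and 0.043). Of the 4 endothelial markers Pecam1 was called higher (0.32 ± 0.09, SE, limma adjusted p = 0.014), and of the 5 muscle markers Myh6 was called lower (-0.46 ± 0.12, SE, limma adjusted p = 0.011). The part of these cells in the result was not tested.

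By time, Nr1d2 and Nr1d1 passed in control hearts at 2 weeks and Per2 at 4 weeks. At 2 weeks, where 23.8% of all genes were called, Nr1d2 fell by 0.97 ± 0.21 (SE, limma adjusted p = 0.0042) and Nr1d1 by 0.78 ± 0.25 (SE, limma adjusted p = 0.037). Dbp stood at -1.62 ± 0.61 (SE, limma adjusted p = 0.068). The Nr1d1 call was lost without heart 11, 12 or 16 (limma adjusted p up to 0.25). At 4 weeks, where 12.7% of all genes were called, Per2 fell by 1.19 ± 0.29 (SE, limma adjusted p = 0.016), while Per1 (-1.27 ± 0.40) and Nr1d2 (-0.58 ± 0.21) had limma adjusted p of 0.054 and 0.082. The Per2 call was lost without heart 2 or heart 6 (limma adjusted p up to 0.13), Per1 passed without the Myl7 hearts (0.024), and whether these responses differ between times was not tested.

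In CKO hearts no member passed for TAC against sham, in the mean of both times, at 2 weeks or at 4 weeks, and none had an unadjusted p under 0.05 in limma. That limit was met by 3265, 4290 and 1601 of the 12589 genes tested. Of all genes tested, 9.11% were called over both times (4.23% higher, 4.89% lower), 19.3% at 2 weeks and 0.262% at 4 weeks. Nr1d2 averaged 21.0 ± 5.48 FPKM in CKO sham and 18.7 ± 2.25 FPKM in CKO TAC hearts (SD, n = 4 each), a log2 difference of -0.13 ± 0.15 (SE, limma adjusted p = 0.62). Per1 differed by -0.27 ± 0.28 (limma adjusted p = 0.58), Per2 by -0.31 ± 0.20 (0.36) and Dbp by -0.05 ± 0.43 (0.96). Sham heart 8, with 16.3 FPKM of Arntl and 6.54 FPKM of Dbp, was the lowest of the 8 CKO sham and TAC hearts in Dbp.

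Whether the response to TAC differed between genotypes was tested as the difference of the responses, CKO minus control. None of the 10 members passed, against 1.25% of all genes. An unadjusted p under 0.05 in limma was found for 1 member and for 1677 of the 12589 genes tested. The member was Nr1d2, with a difference of 0.64 ± 0.21 (SE, limma adjusted p = 0.17). Per1 was at 0.75 ± 0.40 (limma adjusted p = 0.46) and Dbp at 0.92 ± 0.61 (0.57). A call in control and none in CKO hearts therefore does not show that the responses differ.

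**Figure D5:**
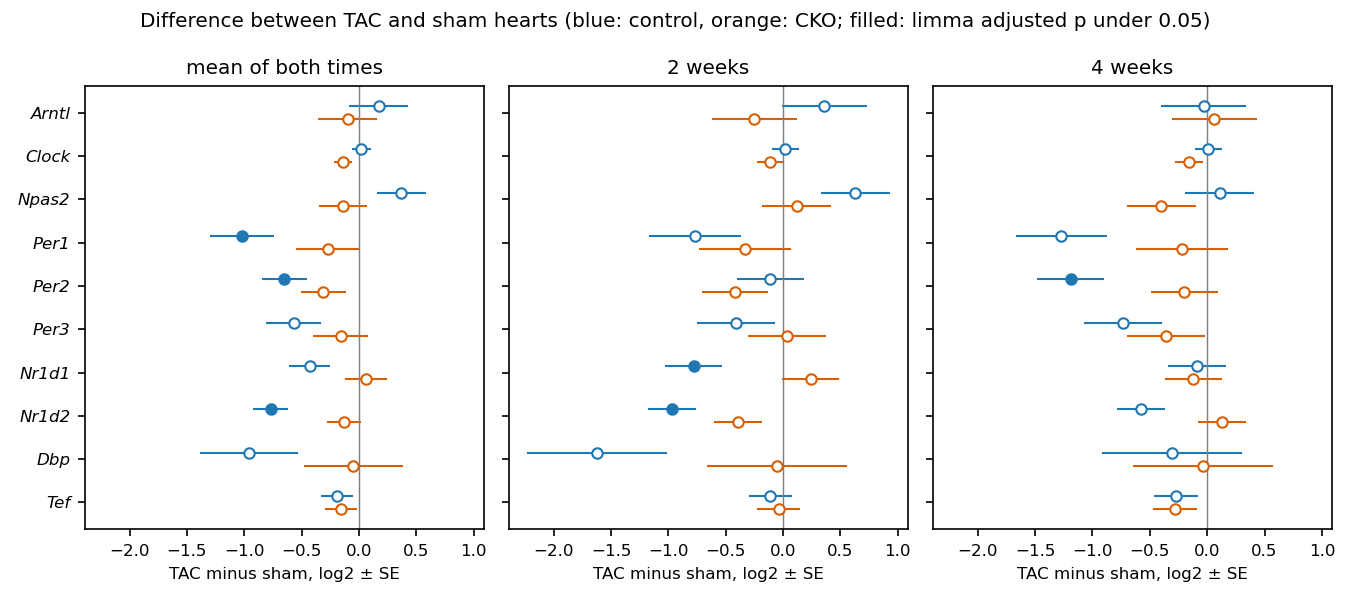
TAC minus sham on the log2(FPKM + 0.5) scale (x axis, bars are the SE from limma) is shown for the 10 clock genes (y axis) over both times, at 2 weeks and at 4 weeks, in control (blue) and CKO hearts (orange); filled points passed at a limma adjusted p under 0.05. Filled points are Nr1d2, Per1 and Per2 over both times, Nr1d1 and Nr1d2 at 2 weeks and Per2 at 4 weeks, all in control hearts.

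Set directly against each other, CKO TAC hearts had more Nr1d2 than control TAC hearts. Nr1d2 was 18.7 ± 2.25 FPKM in CKO and 12.1 ± 0.991 FPKM in control TAC hearts (SD, n = 4 each), 0.60 ± 0.15 higher on the log2 scale (SE, limma adjusted p = 0.037), with no overlap. It was 1 of 10 members called, against 3.45% of all genes tested, and the call was lost when any 1 of 9 hearts was left out (limma adjusted p up to 0.14), without the Myl7 hearts (0.1) and under 3 other settings. Dbp (16.5 ± 6.66 against 7.43 ± 0.819 FPKM, log2 difference 1.03 ± 0.43) and Per1 (0.79 ± 0.28) did not overlap between the genotypes either, but did not pass (limma adjusted p = 0.23 and 0.17). The share of all genes without overlap was not counted here. This comparison shares the control TAC hearts with the one of TAC against sham in controls, so the results are not independent. Fibroblast markers, 600.7 to 1001 FPKM in control TAC and 418.7 to 688.3 FPKM in CKO TAC hearts, moved with it, and their part was not tested.

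Between CKO and control hearts no member passed in the mean of the stages or without pressure overload. Over all 5 stages 0 of 10 members passed and none had an unadjusted p under 0.05 in limma, against 0.151% of all genes called. The same held at the end of tamoxifen (0.0159% of all genes called) and in sham hearts (0.00794%). In the same order, 1082, 431 and 518 of the 12589 genes tested had an unadjusted p under 0.05 in limma. Over the 5 stages the log2 difference CKO minus control was -0.11 ± 0.16 for Arntl, -0.03 ± 0.05 for Clock and 0.39 ± 0.27 for Dbp (SE, limma adjusted p = 0.9, 0.92 and 0.74). A missed threshold does not show that the genotypes are alike.

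Between stages, no member passed from the end of tamoxifen to sham at 2 weeks, from sham at 2 weeks to sham at 4 weeks, or from TAC at 2 weeks to TAC at 4 weeks. These comparisons called 0.913%, 0% and 24.8% of all genes. An unadjusted p under 0.05 in limma was found for 4, 2 and 2 of the 10 members, beside 1967, 1894 and 4720 of the 12589 genes tested. Per1 was 6.19 ± 3.32 FPKM at the end of tamoxifen and 11.2 ± 3.31 FPKM in sham hearts at 2 weeks (SD, n = 4 each), a log2 difference of 0.91 ± 0.28 (SE, limma adjusted p = 0.14). Per3, Tef and Nr1d1 stood at -0.67 ± 0.24, -0.42 ± 0.14 and -0.41 ± 0.18 over the same step (SE, limma adjusted p = 0.2, 0.15 and 0.27). From 2 to 4 weeks in sham hearts Nr1d2 was at -0.51 ± 0.15 and Dbp at -0.98 ± 0.43 (SE, limma adjusted p = 0.16 and 0.31). From 2 to 4 weeks in TAC hearts Per3 was at -0.64 ± 0.24 and Per2 at -0.50 ± 0.20 (SE, limma adjusted p = 0.068 and 0.087).

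Because hearts of 1 group differed in Arntl, the comparisons were also fitted with the log2 Arntl of each heart as a covariate, a setting chosen after the data were seen. In control hearts over both times Nr1d2, Per1 and Per2 were then at -0.70, -0.95 and -0.57 (limma adjusted p = 2.6e-04, 0.02 and 0.025). Dbp, at -0.71, passed as well (limma adjusted p = 0.016). Nr1d2 in CKO against control TAC hearts was at 0.46 (limma adjusted p = 0.039), and in CKO hearts TAC against sham at 2 weeks it was at -0.50 and passed (limma adjusted p = 0.035). Since Arntl is itself part of the loop, these values describe hearts compared at equal Arntl and not at an equal hour.

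Of 16 other clock components, 14 passed the filter, Rorb and Fbxl21 being too low. In control hearts TAC against sham called Hlf and Cry2 lower and Bhlhe41 and Timeless higher, 4 of 14, a share near the 31.4% of all genes called in that comparison. Hlf, the third PAR-bZIP factor beside Dbp and Tef, was 3.68, 2.44, 3.60 and 2.78 FPKM in control sham hearts 12, 16, 6 and 7 and 1.20, 1.26, 1.23 and 1.17 FPKM in control TAC hearts 11, 32, 1 and 2. It was 2.37, 4.03, 4.20 and 3.89 FPKM in CKO sham hearts 14, 15, 4 and 8 and 2.34, 1.65, 2.45 and 2.52 FPKM in CKO TAC hearts 13, 31, 3 and 41. The control groups were far apart and the CKO groups overlapped. Hlf fell by 1.07 ± 0.16 in controls and by 0.58 ± 0.16 in CKO hearts (SE, limma adjusted p = 2.4e-04 and 0.039), and was 0.66 ± 0.16 higher in CKO than in control TAC hearts (SE, limma adjusted p = 0.035). The control fall kept its call without each heart in turn and under the 9 other settings run, and the CKO fall and the genotype difference lost theirs without 10 and 9 of the 20 hearts.

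Cry2, which blocks the ARNTL pair together with PER proteins, fell by 0.36 ± 0.12 in control TAC hearts (SE, limma adjusted p = 0.043), a call lost without 13 of the 20 hearts. Bhlhe41, a repressor that competes at E-boxes, rose by 0.72 ± 0.16 (SE, limma adjusted p = 0.0037). Timeless, which also acts at replication forks, rose by 0.76 ± 0.22 (SE, limma adjusted p = 0.018), a call lost without heart 2, 7, 11 or 16 and, at 0.54, without the Myl7 hearts (limma adjusted p = 0.21). Cry1 differed by 0.02 ± 0.22 and Nfil3, which represses at the D-box, by 0.38 ± 0.22 (SE, limma adjusted p = 0.96 and 0.21). In CKO hearts Hlf was the 1 call of these 14 over both times. None of the 14, Hlf included, passed in limma for the difference of the responses, CKO minus control, against 1.25% of all genes.

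Of 12 genes known to follow the clock in heart or other mouse tissues, 11 passed the filter, Lonrf3 being too low. In control hearts 8 of the 11 fell with TAC and 1 rose, against 16.1% and 15.3% of all genes tested, with a median log2 difference of -0.69 beside -0.002 for all genes. In CKO hearts 6 of the 11 fell, against 4.89% of all genes, with a median of -0.40 beside 0.006 for all genes. The list was chosen with earlier results of these data known, so its excess over all genes is a description and not a test. Klf15, a factor that links the clock to cardiac metabolism and ion channels, was 34.1, 27.6, 28.6 and 38.8 FPKM in control sham hearts 12, 16, 6 and 7 and 10.1, 15.5, 15.4 and 10.8 FPKM in control TAC hearts 11, 32, 1 and 2. It fell by 1.30 ± 0.16 in controls and by 0.62 ± 0.16 in CKO hearts (SE, limma adjusted p = 4.9e-05 and 0.029). Kcnip2, a subunit of the potassium channel of the transient outward current and a target of KLF15, fell by 1.08 ± 0.16 and 0.56 ± 0.16 (SE, limma adjusted p = 2.0e-04 and 0.042). None of the 11 passed in limma for the difference of the responses, CKO minus control, against 1.25% of all genes.

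Dgat2, an enzyme of triglyceride synthesis, fell by 0.70 ± 0.08 in controls and 0.40 ± 0.08 in CKO hearts (SE, limma adjusted p = 2.9e-05 and 0.0095), and Klf9 fell by 0.86 ± 0.11 and 0.43 ± 0.11 (SE, limma adjusted p = 8.5e-05 and 0.031). Por had the smallest limma p of the list in CKO hearts and was called lower in both genotypes. It was 19.0 to 24.4 FPKM in CKO sham and 14.4 to 15.0 FPKM in CKO TAC hearts. In controls Por was 17.7 to 22.7 FPKM in sham and 14.6 to 18.8 FPKM in TAC hearts. The control groups overlapped in Por and the CKO groups did not. Klf10 was the 1 that rose in controls, by 0.70 ± 0.19 (SE, limma adjusted p = 0.014). The Klf10 call was lost without heart 7 or 16, and the CKO calls of Klf15, Kcnip2, Klf9 and Dgat2 were lost without 6, 12, 5 and 1 of the 20 hearts. These genes also respond to signals other than the clock, and their levels were read at an hour that is not given.

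Glucocorticoids and body temperature can shift Per1 and other clock genes, and markers of both were therefore read in the same comparisons. None of 8 glucocorticoid-responsive genes passed for TAC against sham in control or in CKO hearts over both times. An unadjusted p under 0.05 in limma was found for 1 and 0 of them, beside 5247 and 3265 of the 12589 genes tested. From the end of tamoxifen to sham at 2 weeks Cdkn1a rose by 1.25 ± 0.27 and Dusp1 fell by 1.76 ± 0.30 (SE, limma adjusted p = 0.044 and 0.024), while 0.913% of all genes tested were called. These calls were lost without 15 and 5 of the 20 hearts. Per1 stood at 0.91 over the same step. Of the 8 genes 6 were above 0 and 2 below. An unadjusted p under 0.05 in limma was found for 5 of them, beside 1967 of the 12589 genes tested. Of 6 genes that respond to body temperature, the heat shock gene Hsph1 fell by 0.78 ± 0.20 and the cold-inducible Rbm3 rose by 0.48 ± 0.17 in control TAC hearts (SE, limma adjusted p = 0.0091 and 0.046). Thus 1 of the 6 was called lower and 1 higher, while 31.4% of all genes tested were called. Rbm3 was the 1 gene of the 6 with a log2 difference above 0. Cirbp, also cold-inducible, was 28.1 to 54.0 FPKM in control sham and 29.9 to 49.3 FPKM in control TAC hearts, and was not called. The Rbm3 call was lost without 15 of the 20 hearts, and neither Hsph1 nor Rbm3 passed in CKO hearts over both times. At 2 weeks alone, however, Hsph1 fell by 1.35 ± 0.28 and Hspa8, another heat shock gene, by 0.57 ± 0.16 in CKO TAC hearts (SE, limma adjusted p = 0.0058 and 0.023), and the median log2 difference of the 6 genes was -0.98 there and 0.31 at 4 weeks. Both calls were lost without heart 15 or 31, and 19.3% of all genes tested were called in CKO hearts at 2 weeks. Cirbp was 50.7 and 46.0 FPKM in CKO sham hearts 14 and 15 and 39.8 and 25.3 FPKM in CKO TAC hearts 13 and 31. The part of glucocorticoids and body temperature in the values of the clock genes was not tested.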

How the data were processed

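Messenger RNA of 20 mouse hearts was analysed, 2 in each of 10 groups taken from the labels. Per the labels' protocols, RNA came from the miRNeasy Mini Kit and strand-marking libraries from the TruSeq Stranded mRNA kit. TopHat2 2.1.1, Bowtie2, Cuffdiff 2.2.1 and build mm10 are named in the submitters' processing notes. The authors deposited FPKM per gene, 1 table of 23284 genes per heart, with no counts, so the depth is unknown.

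The 12589 genes averaging 0.5 FPKM or more were analysed as log2(FPKM + 0.5), which understates folds of low genes. A mean per group was fitted to all 20 hearts with limma 3.58.1 (R 4.3.3, trended prior, 10 residual degrees of freedom), with Benjamini-Hochberg adjustment over all genes and a call at an adjusted p under 0.05. Fits were tested on simulated data. Correlations used 100000 permutations or all exchanges within groups, two-sided. Up to 4 genes of each further list were named by smallest p per comparison, and Cry1 and Nfil3 for their place in the loop. The members and gene lists were chosen with earlier results of these data known. Alternatives were other pseudocounts, filters, scalings, priors and sets of hearts, and each heart left out in turn. Median-ratio scaling, 1 of these, could change little because the median ratios were already 1.003 to 1.006.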

Additional observations from a re-analysis of the deposited data

How the results depend on the processing

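Of 2683 refits of the 91 calls on listed genes, 437 lost the threshold and 0 changed direction. Counts of called members moved as follows. The share of all genes called in the same refit is not given beside them. These counts therefore do not tell a change in the members from a change in all genes. TAC against sham in controls (3 members) gave 2 to 5 when 1 heart was left out, with 5 without heart 7. At 2 weeks (2) it gave 1 to 3, and 1 with no filter or with only the groups compared. At 4 weeks (1) it gave 0 to 2, then 2 without the 5 hearts whose Myl7 reached 10 FPKM and 3 with Arntl as a covariate, both settings chosen after seeing the data. CKO against control in TAC hearts (1) gave 0 to 1, and 0 with no filter, with only the groups compared, with a prior without trend and without the Myl7 hearts. TAC at 4 against 2 weeks (0) gave 0 to 1, and 1, Arntl, with only the groups compared. In CKO hearts at 2 weeks (0) the Arntl covariate gave 1. The F test (2) gave 1 to 4, and 1 with a filter at 3 FPKM and 1 without the Myl7 hearts. Without the Myl7 hearts the F test has no CKO heart at the end of tamoxifen and so covers fewer groups. Leaving out 1 heart removes its group from the within-group correlations with Arntl, and their range was 0.43 to 0.63 for Clock, 0.66 to 0.84 for Npas2, -0.49 to -0.15 for Per1, -0.84 to -0.65 for Per3, -0.86 to -0.70 for Nr1d2, -0.93 to -0.87 for Dbp and -0.88 to -0.78 for Tef. Npas2, Nr1d2, Dbp and Tef each lost the threshold without 12 of the 20 hearts, in a test that then had fewer exchanges. Across hearts the range was 0.35 to 0.56 for Clock, -0.55 to -0.34 for Per2 and -0.55 to -0.37 for Nr1d1. The cause of these changes was not tested. No paired analysis was possible because each heart's number occurs once in the labels. Group means rest on 2 hearts, and without counts no counting error can be given for Per2 or Npas2.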
